A study of Mus musculus with 6 samples.

Results

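Gzma, Gzmb, Prf1, Nkg7, Ncr1, Klrk1, Klrb1c, Klrd1 and Eomes are genes of the killing machinery of natural killer (NK) cells and cytotoxic T cells. They were taken as a list of 9 named genes, and 7 of them were measured among 14860 genes. The array entries for Klrk1 and Klrb1c each carried several gene symbols, so neither gene was given a value. The samples were Sca-1-selected spleen cells of 6 NRASD12/BCL-2 double transgenic FVB/N mice, which develop acute myeloid leukaemia, and each mouse had its own Affymetrix exon array. In 3 mice ABT-737 had been given at 75 mg/kg, 3 times each week over 33 days, and 3 mice were controls, untreated per the series description, although the dose text stands in the labels of all 6 mice. ABT-737 mimics a BH3 peptide and inhibits BCL-2, its close relative BCL-XL, and BCL-W. Both groups carried both transgenes. The sources used here give neither the promoters that drive them nor the ages of the mice. The mice are separate animals with nothing to pair them across groups.

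Killer lymphocytes store granzymes, which are serine proteases, and perforin in secretory granules and release them onto a target cell. Perforin opens the way into the target and granzymes A and B then cleave proteins there. NK cells decide whether to fire by summing activating and inhibitory surface receptors, many of them C-type lectin-like proteins encoded in the NK gene complex. Eomes and T-bet, which are T-box transcription factors, set up this programme in NK cells and in CD8+ T cells. Since whole cell fractions were measured, fewer cells of a type and less RNA per cell cannot be told apart.

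Sca-1 was selected with magnetic beads, and the gene that encodes it, Ly6a, was not analysed here. The progenitor marker Kit ranged from 8.08 to 8.46 log2 in the ABT-737 mice and from 7.83 to 8.46 in the controls. Lymphocyte genes gave signal on every array, with Cd3e, a T cell receptor chain, at 11.80 to 12.56 in the ABT-737 mice and 11.83 to 12.23 in the controls. Median log2 signals of the arrays were 7.07 to 7.14 in the ABT-737 mice and 6.86 to 7.13 in the controls, and no detection calls were used here. On the Y-linked genes Kdm5d and Eif2s3y, control mouse 3 stood apart at 4.77 and 4.23, while the other 5 mice ranged from 8.05 to 9.06 and from 9.87 to 10.27. The limma fit held no covariate, so any difference in sex between control mouse 3 and the other mice was not set apart from treatment. On the first principal component, ABT-737 mouse 1 scored -7.42 and ABT-737 mice 2 and 3 scored 32.2 and 28.1, against -21.0 to -15.0 in the controls. Over all 14860 genes, limma with Benjamini-Hochberg adjustment called 0 genes at an adjusted p under 0.05, with 1516 at an unadjusted p under 0.05, 854 higher and 662 lower. That split was 737 higher and 1407 lower after quantile normalization, and 618 higher and 1314 lower when each array was centred on its median.

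The comparison asked how expression of the cytotoxicity genes stood after ABT-737. Of the 7 measured genes, 6 had lower means in the ABT-737 mice, as did 56.0% of all genes, and 1, Ncr1, had a higher mean. Gzmb was the 1 gene lower by at least 1.5-fold, a size reached by 1.51% of all genes. None passed an adjusted p of 0.05 by limma, where 0% of all genes passed. At an unadjusted p under 0.05 there were 2, Gzmb and Prf1, both lower, against 4.45% of all genes called lower in this way. Their median difference was -0.35 log2, beside -0.02 for all genes. In ABT-737 mice 1 and 3, a pair picked after the values were seen, 6 of the 7 genes lay below every control. In the same 2 mice 13.7% of all genes did so. In ABT-737 mouse 2, Prf1 alone did so.

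**Figure D1:**
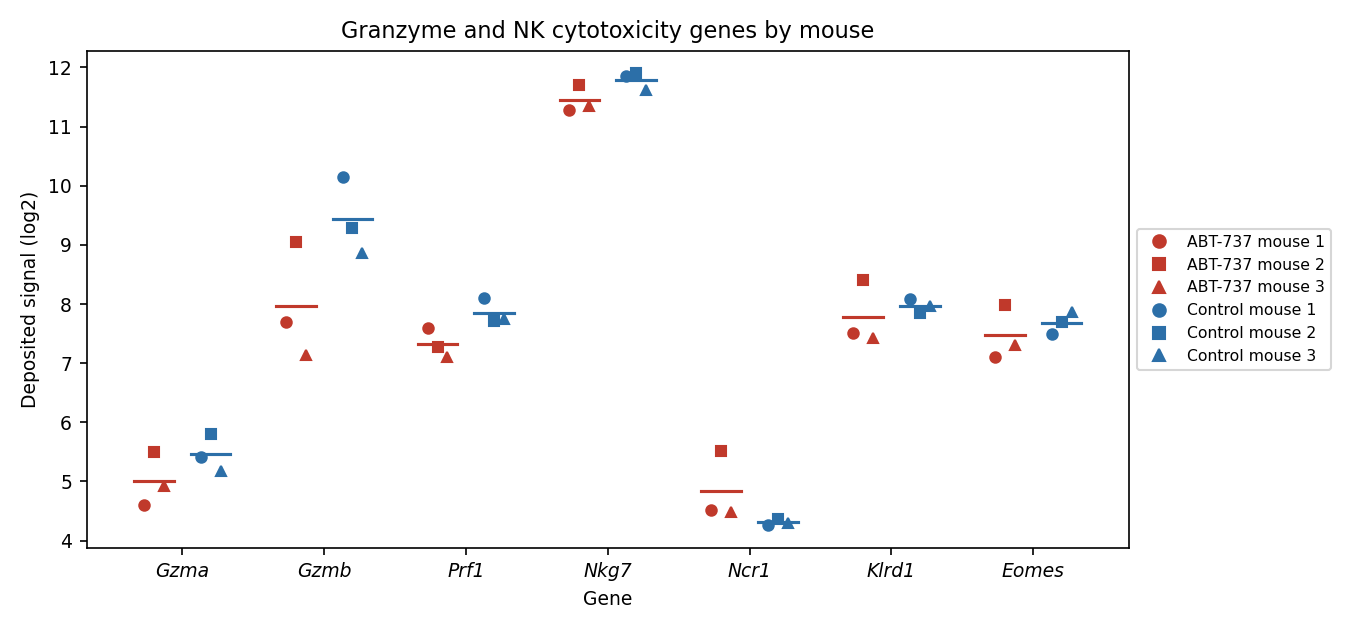
Deposited log2 signal of the 7 measured genes (vertical axis) in each mouse, with ABT-737 mice left of the controls for each gene and horizontal bars at the group means (n = 3 each). Gzmb spans 7.14 to 9.05 in the ABT-737 mice and 8.87 to 10.15 in the controls, and ABT-737 mouse 2 is the highest ABT-737 mouse for each gene except Prf1.

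The granule proteins come first. Gzmb encodes granzyme B, the protease that cuts caspases and Bid in the target cell. Its signal was 7.69, 9.05 and 7.14 log2 in ABT-737 mice 1, 2 and 3, against 10.15, 9.29 and 8.87 log2 in control mice 1, 2 and 3. ABT-737 mouse 2 lay inside the range of the controls, so the groups overlapped by this mouse, and the other 2 ABT-737 mice were more than 1 log2 unit below every control. The group means were 7.96 ± 0.98 in ABT-737 mice and 9.44 ± 0.65 in controls (SD, n = 3 each). The difference was -1.48 log2 (SE 0.52, 95% interval -2.69 to -0.26), a signal 2.78-fold lower after ABT-737, with an unadjusted p of 0.0235 and an adjusted p of 0.411 by limma. The two-sided exact permutation test gave p = 0.2. Without ABT-737 mouse 2 the difference was -2.02, and without ABT-737 mouse 3 it was -1.07.

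Prf1 encodes perforin, the pore-forming protein that granzymes need to enter the target. It read 7.59, 7.27 and 7.11 log2 in the ABT-737 mice, against 8.11, 7.71 and 7.74 log2 in the controls. All 3 ABT-737 mice lay below all 3 controls, a separation in this direction that 7.19% of all genes showed. The means of 7.32 ± 0.24 in ABT-737 mice and 7.85 ± 0.22 in controls (SD, n = 3 each) differed by -0.53 log2 (SE 0.17, 95% interval -0.93 to -0.13). Perforin signal was thus 1.44-fold lower after ABT-737, with an unadjusted p of 0.0171 and an adjusted p of 0.397 by limma. The exact permutation p was 0.1, the smallest that 3 mice against 3 can give.

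Gzma encodes granzyme A, a tryptase of the same granules. Its signal was 4.60, 5.50 and 4.92 log2 in the ABT-737 mice, against 5.41, 5.80 and 5.18 log2 in the controls. ABT-737 mouse 2 was above control mice 1 and 3, and the difference of -0.46 log2 (SE 0.26, 95% interval -1.06 to 0.15, adjusted p = 0.616 by limma) was within the spread between mice. Gzma and Ncr1 were among the 30% of genes with the lowest mean signal, so small differences in them rest on dim entries. Nkg7 encodes a granule membrane protein of NK and cytotoxic T cells that takes part in degranulation. It read 11.28, 11.70 and 11.35 log2 in the ABT-737 mice, against 11.86, 11.90 and 11.61 log2 in the controls. ABT-737 mouse 2 was above control mouse 3 and below the other controls, and the difference was -0.35 log2 (SE 0.15, 95% interval -0.71 to 0.01, adjusted p = 0.509 by limma).

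Receptors did not share 1 direction. Ncr1 encodes NKp46, an activating receptor that marks NK cells. Its signal was 4.51, 5.52 and 4.49 log2 in the ABT-737 mice, against 4.26, 4.36 and 4.30 log2 in the controls. All ABT-737 mice lay above all controls, as did 6.14% of all genes, but ABT-737 mice 1 and 3 were above the highest control by little and mouse 2 by more than 1 log2 unit. The difference was 0.53 log2 (SE 0.27, 95% interval -0.11 to 1.17, adjusted p = 0.571 by limma), or 0.19 without ABT-737 mouse 2. Its exact permutation p was 0.1, again the smallest possible.

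Klrd1 encodes CD94, which pairs with NKG2 proteins to read the non-classical MHC molecule Qa-1 in mice. It read 7.51, 8.40 and 7.42 log2 in the ABT-737 mice, against 8.08, 7.85 and 7.97 log2 in the controls. ABT-737 mouse 2 was the highest of the 6 mice and ABT-737 mice 1 and 3 were the lowest. The difference of -0.19 log2 (SE 0.26, 95% interval -0.79 to 0.41) thus averaged mice on either side of the controls. Eomes, the T-box factor, showed the same order of extremes at 7.11, 7.99 and 7.31 log2 in the ABT-737 mice, against 7.49, 7.70 and 7.87 log2 in the controls. Its difference was -0.22 log2 (SE 0.24, 95% interval -0.77 to 0.34), and the adjusted p by limma was 0.862 for Klrd1 and 0.819 for Eomes. Klrk1 encodes NKG2D, the receptor for stress-induced ligands, and Klrb1c encodes NK1.1, and neither was measured by an entry of its own.

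**Figure D2:**
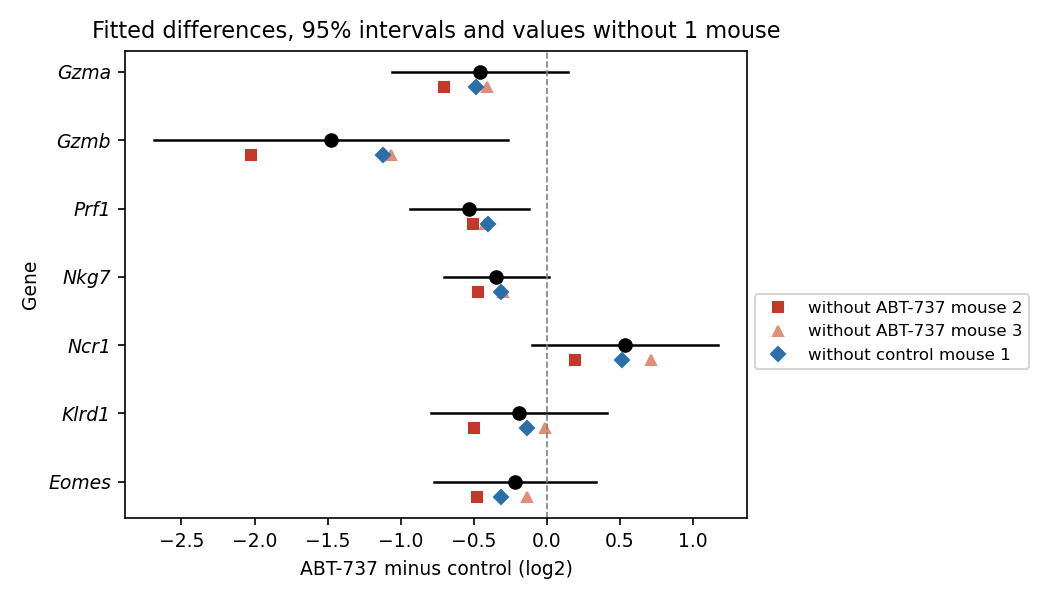
Fitted difference, ABT-737 minus control, in log2 (horizontal axis) for each measured gene, as a black point with its 95% interval (n = 3 mice each), and below it the difference without 1 named mouse. Gzmb moves from -1.48 to -2.02 without ABT-737 mouse 2, and the intervals of Gzmb and Prf1 are the ones that do not reach 0.

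On most of these genes ABT-737 mouse 2, rather than mouse 1 as on the first principal component, stood apart from the other ABT-737 mice. Relative to the control mean, its Ncr1, Klrd1 and Eomes were higher by 1.21, 0.43 and 0.30 log2. In the same mouse Gzma stood at 0.04, Nkg7 at -0.09, Gzmb at -0.39 and Prf1 at -0.58 relative to the controls. Without it, 6 of the 7 genes reached an unadjusted p under 0.05 by limma, all lower, against 5.46% of all genes called lower in that fit. These 6 were also the genes whose 2 remaining ABT-737 mice lay below all controls, as 13.7% of all genes did. The smallest adjusted p among the 7 genes was then 0.356. ABT-737 mouse 2 was singled out by its values on these same genes. Leaving it out lowered the ABT-737 mean of each of the 7 except Prf1. Neither count of 6 genes is therefore separate support for a lower level, and the shares of all genes carry no such choice. The number of the 7 genes at an unadjusted p under 0.05 was 0 without ABT-737 mouse 3 or control mouse 1, and 1 without control mouse 2. Over all 14860 genes, 1101, 1090 and 1292 were called in those fits.

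Promoter sequences are shown for the genes whose groups were apart in either direction, Prf1 and Ncr1, for Gzmb, which had the largest difference, and for Nkg7, which is the gene with a T-box match. They come from RefSeq on GRCm38.p6, run 5′ to 3′ along the gene, and hold 250 bases before and 50 bases from the transcription start. Capitals mark matches, on either strand, to RUNX (TGTGGT), AP-1 (TGANTCA), STAT (TTCNNNGAA) and T-box (GGTGTG) letters, and no marked matches overlap. The windows are chr14:56262285-56262584 on the minus strand for Gzmb, chr10:61297586-61297885 on the plus strand for Prf1, chr7:4337465-4337764 on the plus strand for Ncr1 and chr7:43436888-43437187 on the plus strand for Nkg7.
Gzmb: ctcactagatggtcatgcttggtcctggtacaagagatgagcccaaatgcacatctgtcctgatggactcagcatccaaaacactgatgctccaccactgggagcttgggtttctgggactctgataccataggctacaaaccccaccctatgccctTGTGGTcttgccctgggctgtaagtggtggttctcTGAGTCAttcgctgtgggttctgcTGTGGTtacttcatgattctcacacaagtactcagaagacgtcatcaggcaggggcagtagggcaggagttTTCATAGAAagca
Prf1: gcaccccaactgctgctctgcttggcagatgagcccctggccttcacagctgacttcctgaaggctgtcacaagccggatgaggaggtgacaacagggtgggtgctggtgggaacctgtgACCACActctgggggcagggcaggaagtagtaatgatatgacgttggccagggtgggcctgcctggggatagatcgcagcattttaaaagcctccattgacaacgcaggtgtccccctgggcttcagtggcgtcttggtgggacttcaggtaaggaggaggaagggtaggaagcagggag
Ncr1: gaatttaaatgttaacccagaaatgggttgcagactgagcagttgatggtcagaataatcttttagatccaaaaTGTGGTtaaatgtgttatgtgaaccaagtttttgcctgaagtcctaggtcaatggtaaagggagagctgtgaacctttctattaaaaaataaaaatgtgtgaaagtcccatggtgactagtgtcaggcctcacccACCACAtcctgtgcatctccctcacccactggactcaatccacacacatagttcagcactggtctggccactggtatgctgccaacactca
Nkg7: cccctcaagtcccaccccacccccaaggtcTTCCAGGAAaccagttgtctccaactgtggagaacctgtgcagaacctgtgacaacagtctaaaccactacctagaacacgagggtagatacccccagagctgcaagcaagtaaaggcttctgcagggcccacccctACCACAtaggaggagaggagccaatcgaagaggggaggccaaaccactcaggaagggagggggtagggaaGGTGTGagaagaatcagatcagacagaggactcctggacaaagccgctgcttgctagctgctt

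Promoter windows were found for 8 of the 9 genes, including Klrk1 and Klrb1c, and Klrd1 had no entry. Ncr1 had 2 overlapping windows, both with RUNX letters, and 1 of them is shown. RUNX letters were present in 7 of these 8 genes, against 16.8% of 32851 promoter windows of the same length, and Eomes was the gene without them. Gzmb held 2 such matches, starting at -93 and -34 from the transcription start, with an AP-1 match between them at -58. RUNX factors and AP-1 are known regulators of lymphocyte effector genes. AP-1 letters were in 2 of the 8 genes, Gzmb and Klrk1, against 7.81% of all windows. STAT letters were in Gzmb and Nkg7, against 8.3% of all windows. T-box letters, the kind read by Eomes itself, were in Nkg7 alone, against 19% of all windows. Ncr1 and Prf1, whose means differed in opposite directions, both held RUNX letters. Counts here are by gene and the shares by window, and the motifs were chosen with earlier results known. Enrichment was not tested. These matches describe letters in short windows and show no binding.

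Other granzymes were measured by dim entries. Of 8 listed, 3 were measured, Gzmd, Gzmk and Gzmn, with differences of -0.01, 0.02 and -0.10 log2. At an unadjusted p under 0.05 there were 0, beside 10.2% of all genes. All 3 were among the 30% of genes with the lowest mean signal, so a small difference says little about these granzymes. Gzmk, a tryptase of memory CD8+ T cells, ranged from 4.75 to 4.95 in the ABT-737 mice and from 4.71 to 5.01 in the controls. Gzmn read 4.52, 4.49 and 4.47 log2 in the ABT-737 mice, against 4.64, 4.60 and 4.53 log2 in the controls, so its groups did not overlap (SE 0.10, adjusted p = 0.806 by limma). A separation in this direction was shown by 7.19% of all genes. The signs for Gzmd and Gzmk changed with the scaling of the arrays or with the mouse left out.

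Serpins inside killer cells can protect them from their own proteases, and the measured ones were not all in 1 direction. Serpinb9, the intracellular inhibitor of granzyme B, read 6.70, 7.59 and 6.59 log2 in the ABT-737 mice, against 8.18, 7.75 and 7.87 log2 in the controls. Each ABT-737 mouse was below each control, and mouse 2 was again the closest to them. The difference was -0.97 log2 (SE 0.27, adjusted p = 0.345 by limma), and the related serpin Serpinb6b differed by -1.30 (SE 0.19, adjusted p = 0.198). Of 6 granzyme inhibitors listed, 4 were measured, with 3 lower, beside 56.0% of all genes, and a median of -0.62. Of these, 2 were lower at an unadjusted p under 0.05, beside 4.45% of all genes, and 0 passed the adjusted threshold. Serpinb9b stood at -0.26 and Serpinb6a at 0.43.

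The transport and release of granules showed other values. Of 12 measured genes of granule processing and exocytosis, 8 had higher means and 4 lower, with a median of 0.19 and 3 at an unadjusted p under 0.05, all higher, as were 5.75% of all genes. These were Lyst, the lysosomal trafficking regulator, at 0.78 (SE 0.18), Stxbp2, a syntaxin-binding protein, at 0.46 (SE 0.16) and Unc13d, the granule priming factor, at 0.37 (SE 0.15). Their adjusted p values by limma were 0.292, 0.407 and 0.480. The number was 6 without ABT-737 mouse 1 and 1 without ABT-737 mouse 2 or 3 or control mouse 2 or 3, and 1 when arrays were centred. Of all 14860 genes, 1525 were called higher without ABT-737 mouse 1, and 456 to 665 under those other settings. These genes also serve myeloid cells. Of 9 measured neutrophil markers 9 were higher, while 56.0% of all genes had lower means. The neutrophil list means were 11.8 to 12.8 in the ABT-737 mice and 10.3 to 11.0 in the controls. The part of neutrophil RNA in the granule genes was not tested.

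**Figure D3:**
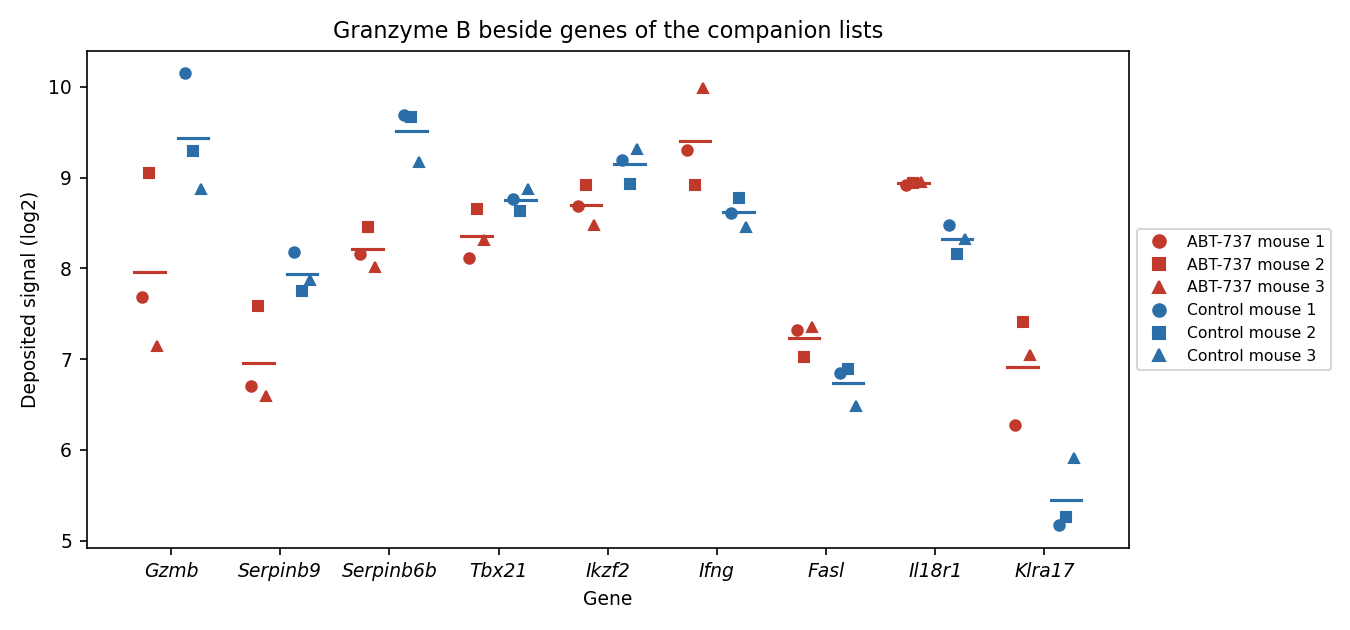
Deposited log2 signal (vertical axis) of Gzmb and of 8 genes of the related lists in each mouse, with ABT-737 mice left of the controls and bars at the group means (n = 3 each). Serpinb9, Serpinb6b and Ikzf2 lie lower in all ABT-737 mice, and Ifng, Fasl, Il18r1 and Klra17 lie higher in all of them.

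Other NK receptors were split. Among 20 measured of 35 listed, 11 had higher and 9 had lower means, the median was 0.04, and centring each array on its median gave 8 higher, 12 lower and a median of -0.05. At an unadjusted p under 0.05 there were 3, beside 10.2% of all genes. Klra17, which encodes Ly49Q, a Ly49 receptor found on plasmacytoid dendritic and myeloid cells, was at 6.28, 7.41 and 7.05 log2 in the ABT-737 mice, against 5.17, 5.26 and 5.91 log2 in the controls. All ABT-737 mice were above all controls, with a difference of 1.47 (SE 0.32, adjusted p = 0.281 by limma). Ncam1, an adhesion molecule, differed by 0.67 (SE 0.24) and Slamf6, a self-binding receptor of NK, T and B cells, by -0.39 (SE 0.14). ABT-737 mouse 2 held the highest signal for 14 of the 20 genes, while it did so for 18.5% of all genes. Its mean over the 20 genes was 7.21, against 6.55 and 6.63 in ABT-737 mice 1 and 3 and 6.52 to 6.68 in the controls. Without that mouse, 6 receptors had higher and 14 had lower means, and their median was -0.07.

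The same mouse held the highest signal for 4 of the 7 measured homing receptors, while it did so for 18.5% of all genes. Among the 7 measured, 4 had higher and 3 had lower means, and the median was 0.33 log2, which was -0.005 without ABT-737 mouse 2. S1pr5, the sphingosine phosphate receptor that lets NK cells leave marrow and lymph nodes, was named after its values were seen and read 7.69, 9.89 and 8.28 log2 in the ABT-737 mice, against 7.91, 7.84 and 8.22 log2 in the controls. Itgam, an integrin of mature NK cells and of myeloid cells, differed by 1.73 (SE 0.32, adjusted p = 0.241 by limma) and was the 1 gene of the list at an unadjusted p under 0.05, beside 10.2% of all genes. Among adaptors and kinases below the receptors, 6 of 13 measured genes had higher and 7 had lower means, and the median was -0.03, or 0.06 without ABT-737 mouse 2. Fcer1g and Tyrobp, signalling adaptors shared with myeloid cells, were higher by 0.57 (SE 0.16) and 0.69 (SE 0.25), and Lcp2 by 0.34 (SE 0.13). Sh2d2a, a T cell adaptor, named after its values were seen, was lower at -0.51 (SE 0.21), and these 4 were the genes of the list at an unadjusted p under 0.05, beside 10.2% of all genes. Monocyte and macrophage markers were higher in 9 of 9 genes, while 56.0% of all genes had lower means. Their list means were 10.3 to 10.9 in the ABT-737 mice and 9.86 to 10.4 in the controls. The number higher was 8 with quantile normalization or median centring, and without ABT-737 mouse 1 or 3 or control mouse 2. Called higher at an unadjusted p under 0.05 by limma were 2, beside 5.75% of all genes. The part of monocytes and macrophages in these adaptors was not tested.

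Killer cells also act through cytokines and death ligands. Of 18 measured genes of NK cytokines and cytokine receptors, 11 had higher and 7 had lower means, and the median was 0.24. An unadjusted p under 0.05 was reached by 6 higher and 1 lower gene, beside 5.75% and 4.45% of all genes. Il18r1, the interleukin-18 receptor chain, was at 8.92, 8.94 and 8.95 log2 in the ABT-737 mice, against 8.48, 8.16 and 8.32 log2 in the controls. The ABT-737 mice were nearly identical and above every control, a difference of 0.62 (SE 0.12, adjusted p = 0.245 by limma). The chemokines Ccl4 and Ccl3, which myeloid cells also make, were higher by 1.05 (SE 0.22) and 0.66 (SE 0.18). Ifng, the interferon of NK and T cells, and Fasl, the death ligand that kills without granules, were picked after their values were seen. Ifng read 9.30, 8.92 and 9.99 log2 in the ABT-737 mice, against 8.61, 8.78 and 8.46 log2 in the controls. It thus lay above all controls in each ABT-737 mouse, and the difference was 0.79 (SE 0.26, adjusted p = 0.404 by limma). Fasl differed by 0.49 (SE 0.16, adjusted p = 0.395), also with no overlap. Il12rb1 and Il12rb2, interleukin-12 receptor chains also picked after their values were seen, differed by -0.36 (SE 0.19) and -0.37 (SE 0.15). Both lay below all controls in each ABT-737 mouse, and Il12rb2 was the 1 gene called lower. Of the 18 genes, 6 lay above all controls in each ABT-737 mouse and 2 below, beside 6.14% and 7.19% of all genes. The cytokine median was 0.06 without ABT-737 mouse 2 and 0.38 without ABT-737 mouse 3.

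Transcription factors listed for the NK lineage were split in direction. Among 17 measured, 8 had higher and 9 had lower means. The median was -0.04, and its sign changed with array weights and without ABT-737 mouse 3 or control mouse 1 or 3. Tbx21, which encodes T-bet, read 8.12, 8.65 and 8.31 log2 in the ABT-737 mice, against 8.77, 8.63 and 8.87 log2 in the controls. ABT-737 mouse 2 just exceeded control mouse 2, so the groups overlapped, and the difference was -0.40 (SE 0.16, adjusted p = 0.462 by limma). Ikzf2, which encodes Helios, differed by -0.45 (SE 0.16, adjusted p = 0.416) with no overlap, and Ets1 by -0.35 (SE 0.18). The ligand Raet1e, a RAE-1 protein read by NKG2D, was higher by 2.04 (SE 0.42, adjusted p = 0.277), with 7.61, 8.97 and 9.01 log2 in the ABT-737 mice, against 6.87, 6.70 and 5.89 log2 in the controls. Of 16 listed ligands 3 were measured, and the others, Cd48 and Clec2i, stood at -0.33 and -0.17.

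**Figure D4:**
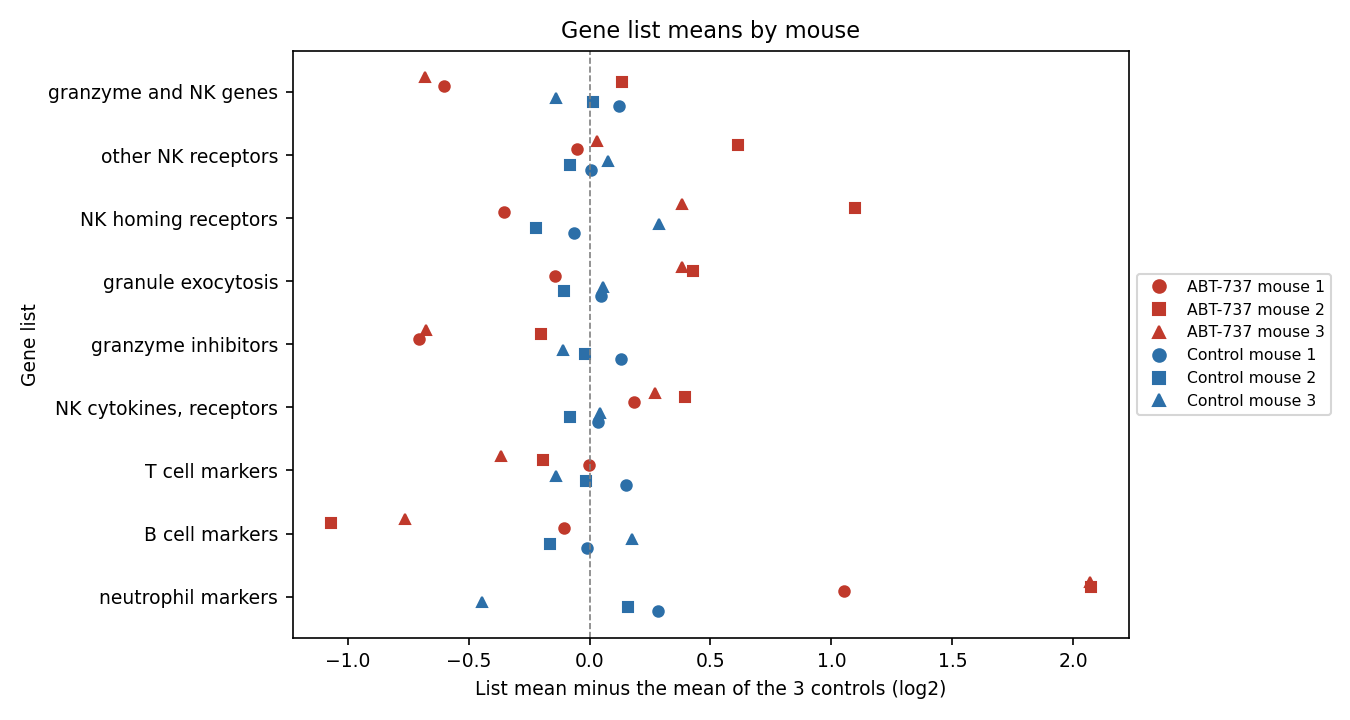
Mean log2 signal of each gene list minus the mean of the 3 controls (horizontal axis), 1 point per mouse, with ABT-737 mice above the controls in each row. ABT-737 mouse 2 stands at 0.13 for the granzyme and NK genes and at 0.61 for the other NK receptors, while ABT-737 mice 1 and 3 stand at -0.60 and -0.68 for the granzyme and NK genes.

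Gzmb, Prf1, Nkg7 and Eomes are also genes of CD8+ T cells. Of 13 measured T cell markers, 4 had higher and 9 had lower means, with a median of -0.15 and list means of 10.2 to 10.6 in the ABT-737 mice and 10.5 to 10.8 in the controls. Cd8b1, a CD8 chain, read 10.18, 10.82 and 9.90 log2 in the ABT-737 mice, against 10.63, 10.72 and 10.69 log2 in the controls. As with Klrd1 and Eomes, ABT-737 mouse 2 was the highest mouse and ABT-737 mice 1 and 3 were the lowest, and the difference was -0.38 (SE 0.23, adjusted p = 0.639 by limma). Cd3e differed by 0.07, Cd3g by -0.15 and Cd3d by -0.13, and Icos, an activation receptor of T cells, by -1.17 (SE 0.24, adjusted p = 0.277). B cell markers were lower in 9 of 9 measured genes, with list means of 10.8 to 11.8 in the ABT-737 mice and 11.7 to 12.0 in the controls. Whether the make-up of the fraction accounts for the values of the cytotoxicity genes was not tested.

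Genes whose profile over the 6 mice was most like that of Gzmb were found by the root mean square difference between profiles, each centred on its own mean. The nearest was Mybl1, a MYB family transcription factor, at 0.30 log2. It was followed by Gcsam, a germinal centre signalling protein, at 0.42, Serpinb9 at 0.46, Olfr250 at 0.47 and Trdv2-2, a T cell receptor delta segment, at 0.48. For Gzma the nearest were the olfactory receptor genes Olfr113, Olfr575, Olfr622 and Olfr1018 and the epithelial gene Sprr4, at 0.14 to 0.15. None of these was a cytotoxicity gene. Among the measured genes of the list, Nkg7 was the closest to Gzma at 0.19, and Gzmb was 0.75 from it. The SD over the 6 mice put Gzmb at the 99.5th percentile of all genes.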

How the data were processed

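Total RNA of Sca-1-selected spleen cells was biotinylated for the arrays, per the labels' protocols. The authors' deposited values are on a log2 scale, read from the values themselves, which run from 2.6 to 14.3. The submitters' processing notes name build mm9. Normalization, summarisation and filters are not given in the sources used here. Their effect on small differences is unknown, and 6 arrays limit the precision.

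Of 23332 entries, 14996 had 1 gene symbol in the platform annotation, 1019 several and 7317 none. Only the first kind was named. By Entrez number, 14941 matched a GRCm38.p6 gene table, which changed 0 symbols. For 135 genes with several entries the one with the highest mean was kept.

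Treatment differences came from limma 3.58.1 in R 4.3.3, by lmFit with eBayes, over all 14860 genes with Benjamini-Hochberg adjustment and a threshold of 0.05. Single genes also had a two-sided exact permutation test over 20 splits. p-values rest on the spread between mice. The genes, lists and promoter motifs were chosen with earlier results of these data known. Named were all measured list members, the 3 genes with the smallest p of each related list, the first 3 and the 2 with the smallest p of each marker list, and the 5 nearest profiles. Not every gene so named is described. Alternatives were scaling, a filter on the dimmest 30%, variance models, array weights, averaging of entries and leaving out each mouse. Testing all entries was added after seeing the data. The fit was tested on simulated data. Figures used matplotlib 3.10.9.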

Additional observations from a re-analysis of the deposited data

How the results depend on the processing

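All 7 differences kept their sign under each alternative that could be run for them, and none passed an adjusted p of 0.05 by limma. The filter on the dimmest 30% left out Gzma and Ncr1. The number of members past the adjusted threshold was 0 under all 13 alternatives, which include leaving out each mouse. At an unadjusted p under 0.05 the number was 2, and it ranged from 0 to 6 when single mice were left out. It was 0 without ABT-737 mouse 3 or control mouse 1, where 1101 and 1090 of all 14860 genes were called in either direction. It was 1 without control mouse 2 and 6 without ABT-737 mouse 2, beside 1292 and 1433 of all genes. It was 3 without ABT-737 mouse 1 or control mouse 3, beside 2191 and 1157 of all genes. With quantile normalization, median centring or array weights it was also 3, beside 2144, 1932 and 1813 of all genes. The gene added to Gzmb and Prf1 was Nkg7 with quantile normalization, with median centring and without control mouse 3. With array weights and without ABT-737 mouse 1, the added gene was Ncr1, called higher. The cause of these shifts was not tested. Over all genes, the adjusted calls were 0, but 14 without the dimmest 30%, 2 with array weights, 510 without ABT-737 mouse 1 and 1 without ABT-737 mouse 3. Quantile normalization and median centring moved the median of all genes to -0.06 and -0.11. No paired analysis was possible because the labels give the mice of the 2 groups no shared numbers.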

Other observations

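Genes of other innate lymphoid and granular cells were also looked at. Of 6 measured markers of innate lymphoid cells of groups 2 and 3, 2 had higher and 4 had lower means, with a median of -0.02. Of these, 0 reached an unadjusted p under 0.05 by limma, beside 10.2% of all genes. Arg1, an arginase of group 2 innate lymphoid cells and of macrophages, read 4.94, 8.46 and 6.35 log2 in the ABT-737 mice, against 5.07, 5.31 and 5.23 log2 in the controls. Of 9 measured mast cell and basophil markers, 2 were higher and 7 lower. Mcpt8, a granule protease of basophils in mice and a relative of the granzymes, read 6.97, 7.14 and 7.56 log2 in the ABT-737 mice, against 8.34, 8.50 and 7.49 log2 in the controls. ABT-737 mouse 3 lay just above control mouse 3, and the difference was -0.89 (SE 0.28, adjusted p = 0.394 by limma). Hdc, which makes histamine and is also expressed by neutrophil precursors, differed by 2.02 (SE 0.42, adjusted p = 0.277). Of 7 measured plasmacytoid dendritic cell markers, 6 were lower, beside 56.0% of all genes, with a median of -0.11. Irf8, a transcription factor that B cells use too, had the largest difference at -0.74 (SE 0.27, adjusted p = 0.434 by limma). Siglech, Tcf4 and Bst2 stood at -0.04, -0.09 and 0.21. Without control mouse 3, 4 of the 7 were higher and 3 lower. Of 6 measured erythroid markers, all had higher means and 0 reached an unadjusted p under 0.05 by limma, beside 10.2% of all genes. Their list means were 7.12, 8.50 and 9.40 in ABT-737 mice 1, 2 and 3, against 7.56 to 7.945 in the controls. ABT-737 mouse 1 thus lay below every control. The median difference was 0.71, or 0.04 without ABT-737 mouse 3.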
